A study of Mus musculus with 23 samples.

Results

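The paired immunoglobulin-like and leukocyte immunoglobulin-like receptors are cell surface proteins of myeloid cells that come as activating and inhibitory partners. Members of a pair have similar extracellular parts, while the inhibitory member carries cytoplasmic tyrosine motifs that recruit phosphatases and the activating member borrows a signalling adaptor. Monocytes, macrophages, granulocytes and some dendritic cells (DCs) are known to use them to set a threshold for activation. Expression of 6 genes of these families was followed across all 23 sequencing libraries. They are 6 of the 47729 genes in the deposited table, found by symbol through the gene annotation. Lilra5 and Lilra6, on chromosome 7, are activating receptors. The inhibitory Lilrb3, listed in the annotation as Pirb, lies on the same chromosome. The other family lies on chromosome 5 and holds the inhibitory Pilra and its activating partners Pilrb1 and Pilrb2.

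The genes were chosen by their readout in part. Lilra5 and Pilrb1 were selected on the difference between untreated DC2 and DC1a cells, and the other members were added as relatives. The values of untreated subsets, and of treated against untreated DC1a and DC2 cells, are therefore described below without a test. Differences between the subsets of treated mice, and the treatment contrasts in DC1b and DC3 cells, were tested. Results of the TLI libraries were also known when the genes were chosen, so these tests are no independent support for the untreated pattern.

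RNA was sequenced from DC subsets sorted from the spleens of wild type BALB/c mice, with 1000 cells per library. No gene was deleted in any group. The 4 subsets were DC1a (CD8hi CD172-), DC1b (CD8Int CD172+), DC2 (CD8lo CD172hi) and DC3 (CD8- CD172lo), where CD172 is the protein made by Sirpa. Each subset was taken from untreated mice (2 libraries, pools 1 and 2) and from mice given TLI (4 libraries, pools 1 to 4, except DC2, which lacked pool 2). The labels do not expand TLI, which in this field usually stands for total lymphoid irradiation, and they give no dose, no time after treatment and no age. Libraries with the same pool number and treatment came from the same pool of mice, so a library is a pool of animals and not one animal. Untreated libraries and TLI pools 1 and 2 formed batch 1, and TLI pools 3 and 4 formed batch 2. Within batch 1 both treatments are present, whereas batch 2 holds TLI libraries alone. Library totals ran from 19256447 to 36997890 counts.

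Labels were checked against marker genes. The 8 markers of conventional type 1 DCs summed to between 2474 and 4424 CPM (counts scaled so that every library has the same total) in the 6 DC1a libraries and to between 136 and 304 CPM in the 5 DC2 libraries. They were also high in untreated DC1b (1890 to 1891 CPM) and DC3 (1796 to 1822 CPM). In TLI mice they summed to 622 to 1295 CPM in DC1b and 1316 to 2333 CPM in DC3. The 6 type 2 DC markers summed to 672 to 769 CPM in untreated DC2 and 159 to 676 CPM in TLI DC2, against at most 18.7 CPM in TLI DC1a and 35.7 CPM in TLI DC3. They did not set DC2 apart from DC1b, where they summed to 262 to 349 CPM in untreated mice. In TLI DC1b these markers summed to 48.7 to 227 CPM, which overlapped TLI DC2. Among them Clec4a4 had 107 to 141 CPM in TLI DC2, Sirpa ranged from 9.22 to 309 CPM there, and Esam had 0 counts in all TLI DC2 libraries and in 1 of 2 untreated DC2 libraries. In TLI DC1b, sorted as CD8Int, Cd8a ranged from 0.327 to 342 CPM, and the lowest value, 11 counts, was that of pool 4. The transcript of that library goes against its gate. Without it, the number of members called was the same in each of the 9 comparisons tested. Untreated DC1b held 2817 to 3083 CPM of 5 plasmacytoid DC markers, against at most 234 CPM in every other group. TLI DC1b held 1406 to 21048 CPM of 9 neutrophil markers and TLI DC2 110 to 2322 CPM, against at most 85.0 CPM elsewhere. Erythroid transcripts reached 132790 CPM in a TLI DC3 library. In such bulk samples fewer cells of a type and less RNA per cell cannot be told apart.

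A stretch upstream of the RefSeq start is shown for each receptor, because relatives share it almost letter for letter while their levels were not always alike. The stretches were placed so that relatives align, so their distances from the start differ. They run from -180 to -1 for Lilra5, -160 to -31 for Lilra6, -130 to -1 for Lilrb3 and -100 to -1 for Pilra. Those of Pilrb1 and Pilrb2 run from -154 to -55. The stretches come from RefSeq promoters on GRCm38.p6, and all 6 members were matched, Lilrb3 under the name Pirb. Capitals mark matches to any of the motifs searched.
Lilra5, chr7:4237574-4237753, plus strand: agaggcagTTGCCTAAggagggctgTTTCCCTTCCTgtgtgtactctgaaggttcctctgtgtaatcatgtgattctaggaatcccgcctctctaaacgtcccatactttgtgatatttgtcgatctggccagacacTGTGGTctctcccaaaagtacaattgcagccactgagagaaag
Lilra6, chr7:3915532-3915661, minus strand: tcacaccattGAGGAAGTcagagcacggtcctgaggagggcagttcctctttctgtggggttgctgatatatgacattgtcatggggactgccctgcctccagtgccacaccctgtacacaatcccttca
Lilrb3, chr7:3720383-3720512, minus strand: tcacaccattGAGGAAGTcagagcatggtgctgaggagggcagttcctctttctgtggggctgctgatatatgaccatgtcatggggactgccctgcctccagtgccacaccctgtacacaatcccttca
Pilra, chr5:137836279-137836378, minus strand: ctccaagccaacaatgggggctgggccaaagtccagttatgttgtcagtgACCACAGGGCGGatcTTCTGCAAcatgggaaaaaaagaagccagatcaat
Pilrb1, chr5:137858104-137858203, minus strand: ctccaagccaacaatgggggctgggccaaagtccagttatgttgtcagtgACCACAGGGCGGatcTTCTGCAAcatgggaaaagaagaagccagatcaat
Pilrb2, chr5:137871813-137871912, minus strand: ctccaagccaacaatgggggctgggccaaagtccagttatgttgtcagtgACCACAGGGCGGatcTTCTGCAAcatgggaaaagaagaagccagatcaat

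The Lilra6 and Lilrb3 stretches were identical at 125 of 130 bases. Those of Pilrb1 and Pilrb2 were identical at 100 of 100 bases, and both differed from Pilra at 1 base. Over the whole 300-base windows, Lilra6 and Lilrb3 aligned over 270 bases with 95.9% identity, and Pilra aligned with Pilrb1 over 246 bases with 98.4% identity and with Pilrb2 with 99.2% identity. Lilra5 shared no alignment longer than 52 bases with any other member.

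In all, 9 motifs were searched on both strands of the windows, which run from 250 bases before the start to 50 after it. The motif bound by PU.1 (GAGGAAGT) was found in Lilra6 and Lilrb3 and is held by 3.2% of 32851 promoters of the same length. The shorter ETS core (AGGAAG), which overlaps it, was found in all 6 members and is held by 35.4% of promoters. The ETS-IRF composite motif was found in Lilra5 and Pilra (2.72% of promoters) and overlaps an ETS core in both. The C/EBP motif TTGCNNAA (10.8%) and the RUNX motif TGTGGT (16.8%) were found in Lilra5, Pilra, Pilrb1 and Pilrb2. In the 3 Pilr genes an Sp1 motif (GGGCGG, 35.7%) directly follows the RUNX motif. The AP-1 motif TGANTCA, the NR4A motif AAAGGTCA and the TATAAA box had no match in any member. A match is a description of letters and was not tested as a binding site.

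The receptors Lilra5, Pilra, Pilrb1 and Pilrb2 were highest in DC1b and DC2 cells. They were low in DC1a and DC3 cells, except that Pilrb2 reached 4.84 to 22.7 CPM in TLI DC3. For these 4 genes, every one of the 11 DC1b and DC2 libraries lay above every one of the 12 DC1a and DC3 libraries. Among all 19597 genes kept in the 23-library fit, 0.388% showed that separation, a background from which nothing is read because the members were chosen with these values known. Lilra6 and Lilrb3 did not separate in this way and formed a gradient, with DC1a lowest.

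**Figure D1:**
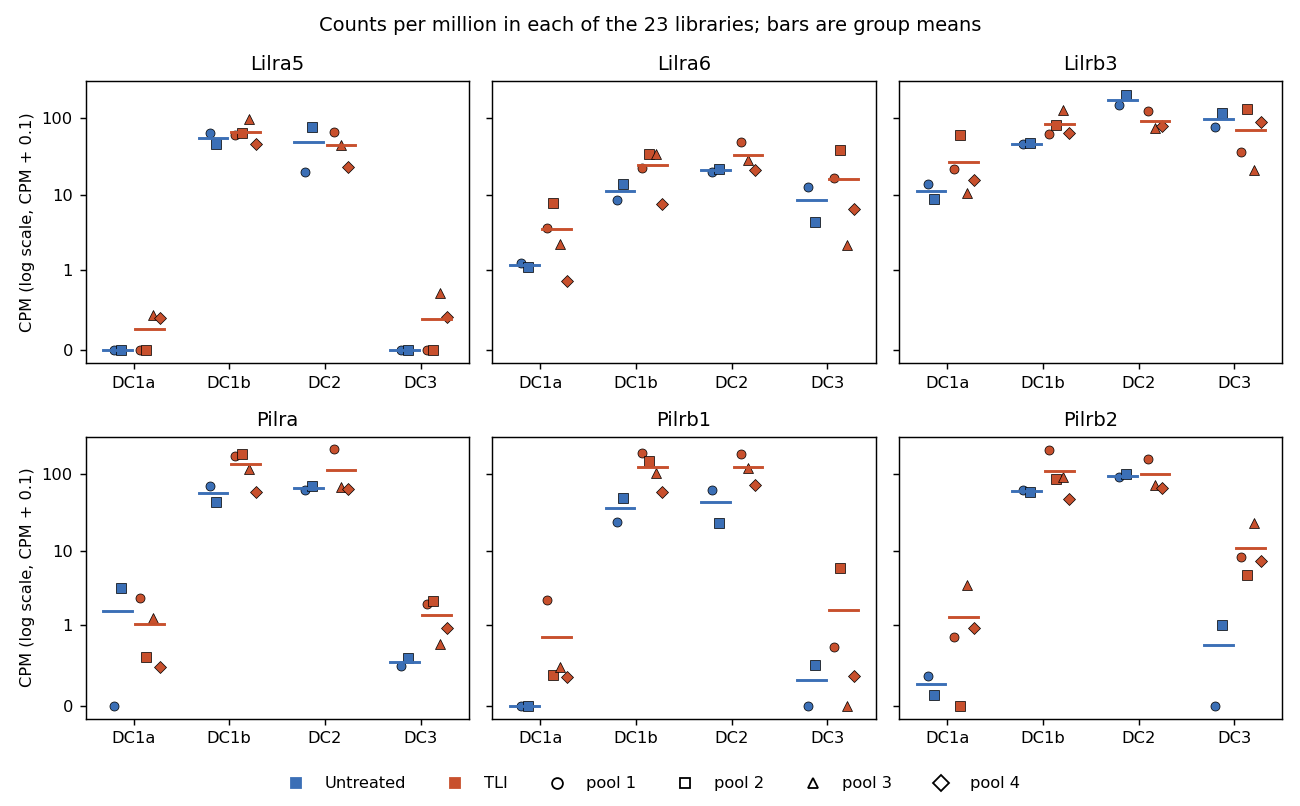
CPM of each receptor (vertical axis, logarithmic after adding 0.1) in the 4 subsets (horizontal axis), with 1 point per library, blue for untreated, red for TLI, the symbol for the pool and a bar for the group mean. Lilra5, Pilra, Pilrb1 and Pilrb2 sit between 19.7 and 205 CPM in DC1b and DC2 and at or below 22.7 CPM in DC1a and DC3, while Lilra6 and Lilrb3 are graded.

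Lilra5 (ENSMUSG00000070873, chr7:4237754-4243463, plus strand, 6 exons) is an activating receptor that signals through the Fc receptor gamma chain. In untreated DC1b it had 63.8 and 45.8 CPM in pools 1 and 2, and in untreated DC2 19.7 and 77.4 CPM. It had no count in any untreated DC1a or DC3 library. Untreated DC1b was at least 497-fold and untreated DC2 at least 441-fold above untreated DC1a, taking a floor of 3 counts per library. The order of DC1b and DC2 was not resolved, since their values overlapped.

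In TLI mice the same gene had 59.7, 63.0, 98.4 and 45.7 CPM in DC1b pools 1 to 4, and 65.5, 44.2 and 22.9 CPM in DC2 pools 1, 3 and 4. TLI DC1a pools 1 to 4 had 0, 0, 7 and 6 counts, and TLI DC3 pools 1 to 4 had 0, 0, 13 and 6 counts. The few counts in DC1a and DC3 were all in batch 2. No read-length window of 76 bases from its transcripts occurs in another gene, so its counts are the least open to sharing among the members.

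Pilra (ENSMUSG00000046245, chr5:137821952-137836281, minus strand, 15 distinct exons) is the inhibitory member of its pair and recruits the phosphatases encoded by Ptpn6 and Ptpn11. It had 69.4 and 43.0 CPM in untreated DC1b and 60.4 and 68.0 CPM in untreated DC2. Untreated DC1a had 0 and 3.20 CPM, and untreated DC3 had 0.228 and 0.313 CPM. After TLI, DC1b pools 1 to 4 had 171, 180, 115 and 58.5 CPM, and DC2 pools 1, 3 and 4 had 205, 66.6 and 62.4 CPM. Pool 4 was lowest in both subsets. TLI DC1a ranged from 0.217 to 2.39 CPM and TLI DC3 from 0.527 to 2.14 CPM. Pilra overlaps Zcwpw1 on the other strand, of whose transcripts 395 read-length windows are shared with it, and strand-specific counting is not given in the sources used here.

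Pilrb1 (ENSMUSG00000066684, chr5:137852147-137858106, minus strand) is an activating partner of Pilra and signals through the adaptor DAP12, made by Tyrobp. It had 23.4 and 47.8 CPM in untreated DC1b and 61.8 and 22.95 CPM in untreated DC2, with 0 counts in both untreated DC1a libraries and 0 and 6 counts in untreated DC3. TLI DC1b pools 1 to 4 had 183, 145, 101 and 58.1 CPM, and TLI DC2 pools 1, 3 and 4 had 177, 119 and 71.2 CPM. All 7 of these TLI libraries lay above the untreated libraries of the same subset. TLI DC1a had 63, 4, 8 and 5 counts in pools 1 to 4, and TLI DC3 had 10, 159, 0 and 5 counts.

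Pilrb2 (ENSMUSG00000066682, chr5:137865827-137871815, minus strand) is a second activating partner, next to Pilrb1. It had 62.0 and 58.1 CPM in untreated DC1b and 90.5 and 97.9 CPM in untreated DC2. Both untreated DC2 libraries thus lay above both untreated DC1b libraries, where 18.1% of genes did so. TLI DC1b pools 1 to 4 had 202, 85.8, 89.9 and 46.9 CPM, and TLI DC2 pools 1, 3 and 4 had 156, 71.3 and 65.6 CPM. It was the one Pilr gene with a clear level in TLI DC3, where pools 1 to 4 had 8.29, 4.84, 22.7 and 7.40 CPM, against 0 and 1.02 CPM in untreated DC3. TLI DC1a ranged from 0 to 3.54 CPM. Of the read-length windows of Pilrb1, 191 (8.80%) also occur in Pilrb2, so a part of their reads could be exchanged between them.

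Lilrb3 (ENSMUSG00000058818, chr7:3711409-3720391, minus strand) is an inhibitory receptor that binds class I molecules of the major histocompatibility complex. In untreated cells it had 13.9 and 8.80 CPM in DC1a, 45.5 and 47.3 CPM in DC1b, 148 and 197 CPM in DC2, and 75.3 and 118 CPM in DC3. The order DC1a, DC1b, DC3, DC2 had no overlap between neighbours, with 2 libraries per group. Of all 19597 genes, 29.1% had both untreated DC2 libraries above both DC1a libraries, and 18.1% had them above both DC1b libraries. The share of genes with a full order of this kind was not computed. In TLI mice the order was less clear. DC1a pools 1 to 4 had 21.9, 59.7, 10.7 and 15.9 CPM, DC1b 61.9, 80.7, 129 and 64.8 CPM, and DC2 pools 1, 3 and 4 had 124, 73.3 and 79.3 CPM. TLI DC3 was scattered, with 36.6, 132, 21.2 and 88.8 CPM, and overlapped all other TLI subsets.

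Lilra6 (ENSMUSG00000030427, chr7:3908280-3915503, minus strand), an activating receptor also known as a PIR-A gene, had 1.22 and 1.08 CPM in untreated DC1a, 8.62 and 13.9 CPM in DC1b, 20.1 and 21.9 CPM in DC2 and 12.7 and 4.43 CPM in DC3. TLI DC1a pools 1 to 4 had 3.66, 7.79, 2.24 and 0.679 CPM, and TLI DC1b had 22.8, 34.1, 34.1 and 7.62 CPM. TLI DC2 pools 1, 3 and 4 had 49.3, 28.6 and 21.3 CPM. TLI DC3 had 16.7, 38.7, 2.18 and 6.52 CPM, again with pool 2 highest and pool 3 lowest, as for Lilrb3. Of its windows, 16.8% occur in other genes, and for Lilrb3 the share is 26.7%. Lilra6 and Lilrb3 share 394 windows, and both share windows with Pira2 and with Gm14548, so their counts are uncertain where the counting split such reads.

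Per kilobase of exon, inhibitory Lilrb3 exceeded activating Lilra6 in all 23 libraries, with a Lilra6 to Lilrb3 ratio between 0.0552 and 0.668. Lilra6 is not the only activating relative of Lilrb3, and the others were left out of this ratio. Pira2, for example, had a mean of 65.7 CPM in TLI DC2, beside 33.1 CPM for Lilra6 and 92.3 CPM for Lilrb3. For the Pilr genes both activating members were summed, so the ratios of the families are unlike measures. Pilrb1 and Pilrb2 together exceeded Pilra in all 11 DC1b and DC2 libraries, by a ratio of 1.94 to 4.50 with a median of 2.84. The ratio did not separate treatments, with 1.94 to 3.98 in untreated and 2.03 to 4.50 in TLI libraries. Ratios were formed on CPM per kilobase, and the shared windows bear on them.

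The balance within the activating Pilr genes is described by library. The ratio of Pilrb2 to Pilrb1 per kilobase was 2.65 and 1.22 in untreated DC1b and 1.46 and 4.27 in untreated DC2. In TLI DC1b it was 1.11, 0.591, 0.891 and 0.807 in pools 1 to 4, and in TLI DC2 it was 0.880, 0.600 and 0.922 in pools 1, 3 and 4. All 7 TLI libraries lay below all 4 untreated libraries, also when batch 1 was taken alone. The nearest values were 1.11 and 1.22. The ratio was looked at after the levels had been seen and carries no test. How many other gene pairs separate in this way was not computed. DC1b and DC2 libraries of the same pool and treatment share mice, and Pilrb1 was chosen on values that include untreated DC2.

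**Figure D2:**
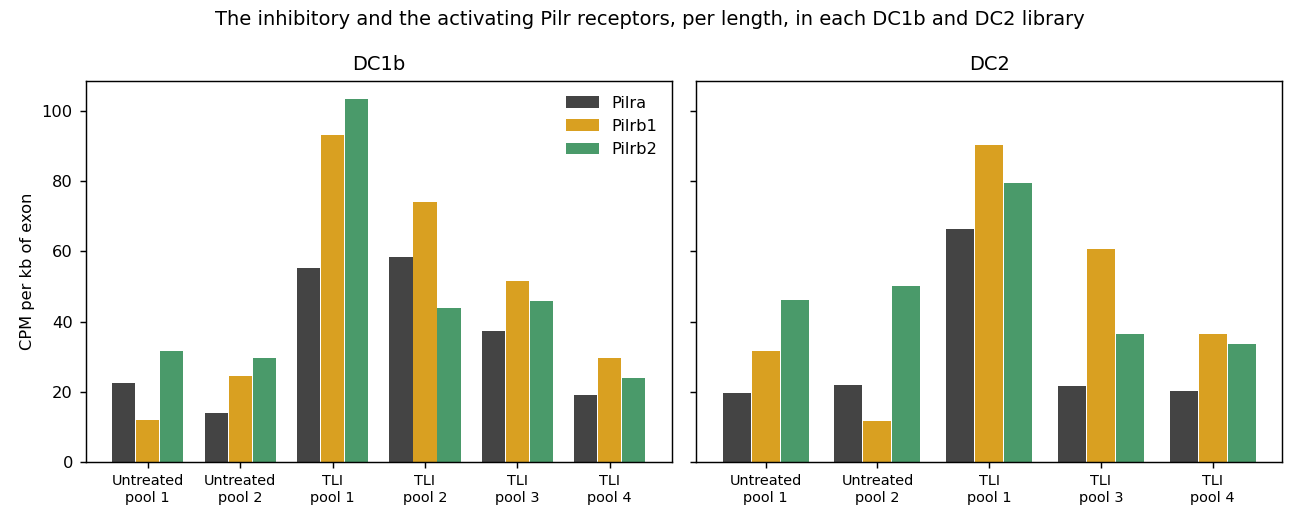
CPM per kilobase of exon (vertical axis, from 0) of Pilra (dark grey), Pilrb1 (yellow) and Pilrb2 (green) in each DC1b and DC2 library, with 1 group of bars per library. Pilrb2 is above Pilrb1 in all 4 untreated libraries and in 1 of 7 TLI libraries, TLI DC1b pool 1.

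As a share of the 6 members' summed level per kilobase, Lilrb3 made up 58.2% to 86.9% in untreated DC1a and 79.9% to 92.3% in untreated DC3. In untreated DC1b its share was 9.31% to 10.1%, where Pilrb2 made up 28.3% to 29.0%. The summed level was 3.38 to 3.59 CPM per kilobase in untreated DC1a and 146 to 172 in untreated DC2. In TLI DC3 the makeup varied, with Lilrb3 at 27.2% to 75.7% and Pilrb2 at 5.10% to 66.5%.

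In TLI mice 5 of the 6 receptors were higher in DC2 than in DC1a, the exception being Lilrb3. The test was edgeR's quasi-likelihood test over 15 TLI libraries with batch as a term, and calls were made at a Benjamini-Hochberg adjusted p under 0.05 over all 16400 genes tested. Of these genes 1.97% were called higher in DC2. The log2 fold change was 9.02 ± 1.33 (SE) for Lilra5 (adjusted p = 0.00212), 6.44 ± 0.73 for Pilra (adjusted p = 0.000342), 8.19 ± 1.38 for Pilrb1 (adjusted p = 0.00571) and 6.05 ± 1.21 for Pilrb2 (adjusted p = 0.0163). Lilra6 was higher by 3.41 ± 0.76 (adjusted p = 0.0297). Lilrb3 differed by 1.67 ± 0.62 and missed the threshold (adjusted p = 0.177). The call of Lilra6 was the weakest, as it was lost when any 1 of the 7 DC1a and DC2 libraries was left out (adjusted p between 0.0529 and 0.105) and without the batch term (adjusted p = 0.173). That of Pilrb2 was lost without TLI DC1a pool 1 (adjusted p = 0.0649) or pool 4 (adjusted p = 0.0633).

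The same receptors distinguished the other CD172 positive subset. DC1b exceeded DC1a for 4 of 6 members, where 1.34% of genes were called higher. The log2 fold changes were 9.81 ± 1.35 for Lilra5 (adjusted p = 0.0019), 6.85 ± 0.73 for Pilra (adjusted p = 0.000272), 8.01 ± 1.34 for Pilrb1 (adjusted p = 0.00816) and 6.49 ± 1.23 for Pilrb2 (adjusted p = 0.0178). Lilra6 differed by 3.11 ± 0.73 (adjusted p = 0.0596) and Lilrb3 by 1.80 ± 0.59 (adjusted p = 0.198), both short of the threshold. With DESeq2 both passed, at adjusted p of 9.15e-05 and 0.0267, where it called 1165 of 16400 genes in either direction. Lilra6 also passed with all 23 libraries in the fit (adjusted p = 0.0274) and without TLI DC3 pool 3 (adjusted p = 0.0447). The call of Pilrb2 was lost without TLI DC1a pool 1 (adjusted p = 0.0846) or pool 4 (adjusted p = 0.0817).

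DC2 exceeded DC3 for Lilra5 (8.55 ± 1.31, adjusted p = 0.00511), Pilra (6.38 ± 0.73, adjusted p = 0.000727) and Pilrb1 (7.60 ± 1.37, adjusted p = 0.0154) on the log2 scale, 3 of 6 members against 0.78% of all genes. Pilrb2 differed by 3.18 ± 1.06 (adjusted p = 0.222). DC3 was below DC1b for the same 3 genes, where 0.909% of genes were called lower, with log2 fold changes of -9.34 ± 1.33 for Lilra5 (adjusted p = 0.00377), -6.79 ± 0.73 for Pilra (adjusted p = 0.000678) and -7.42 ± 1.32 for Pilrb1 (adjusted p = 0.0173). Pilrb2 differed by -3.63 ± 1.06 in that comparison (adjusted p = 0.17). Lilra6 and Lilrb3 were called in neither. With the pool as a block, Pilrb1 narrowly missed the threshold in DC2 against DC3 (adjusted p = 0.0548), so 2 members remained called. Without TLI DC3 pool 4, Pilrb1 was lost against DC2 (adjusted p = 0.0635) and against DC1b (adjusted p = 0.077), and without the batch term in both as well (adjusted p = 0.115 and 0.118). With DESeq2, Pilrb2 was called in both (adjusted p = 0.0229 and 0.00234), and with no filter on low counts it was called against DC1b (adjusted p = 0.0327). In these comparisons DESeq2 called 1281 and 1041 of 16400 genes in either direction.

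**Figure D3:**
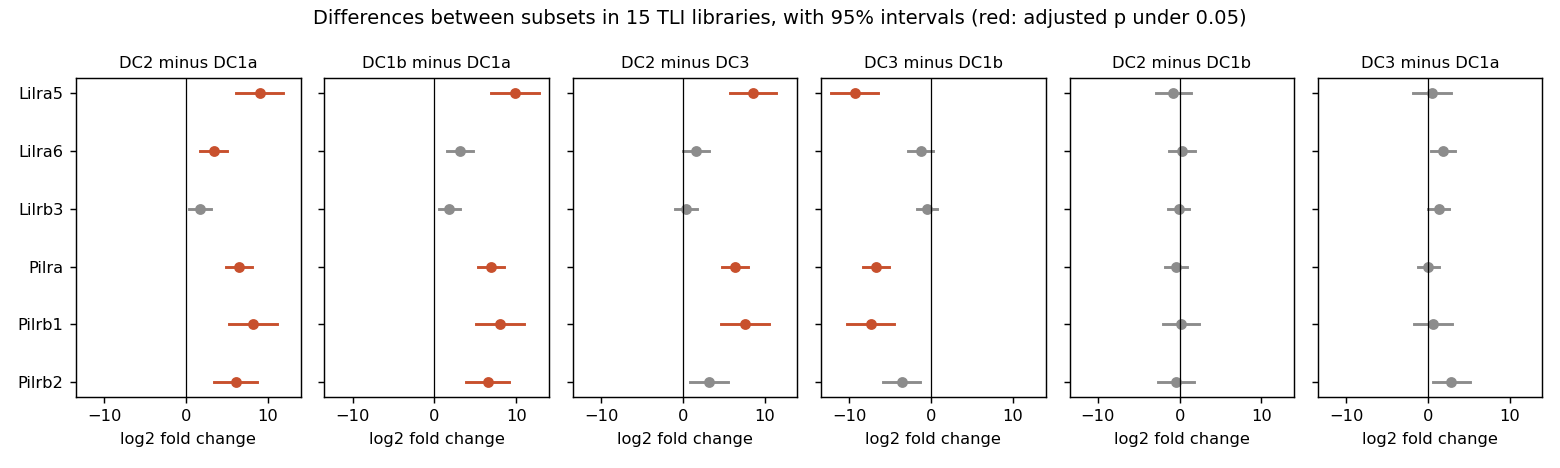
Log2 fold change (horizontal axis) of each receptor (rows) in 6 comparisons between subsets of TLI mice, with 95% intervals as lines, red where the adjusted p was under 0.05 and grey otherwise. The intervals of Lilra5, Pilra, Pilrb1 and Pilrb2 leave out 0 in the first 4 comparisons. Of these, Pilrb2 was called only in DC2 minus DC1a and DC1b minus DC1a. Intervals of Lilra6 and Lilrb3 also leave out 0 against DC1a, with only Lilra6 in DC2 minus DC1a called. In DC2 minus DC1b all 6 intervals cover 0.

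DC2 and DC1b of TLI mice were not told apart by any member. In edgeR 0 of 6 members passed, where 0.165% of genes were called in either direction. Of the members 0 had an unadjusted p under 0.05, beside 1596 of 16400 genes. DESeq2 called 0 members and 750 of all genes. The log2 fold changes lay between -0.79 for Lilra5 (95% interval -2.94 to 1.36) and 0.30 for Lilra6 (-1.24 to 1.84). For Pilra the interval was -1.74 to 0.92, and for Lilrb3 -1.43 to 1.18, so differences of several-fold either way were within the precision of these libraries. Untreated cells carry no test here. There, both DC2 libraries lay above both DC1b libraries for Lilra6, Lilrb3 and Pilrb2, where 18.1% of genes did so.

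DC3 and DC1a of TLI mice differed for 0 of 6 members in edgeR, against 0.634% of genes called in either direction. Of the members, 3 had an unadjusted p under 0.05, all with higher values in DC3, namely Lilra6 (1.83 ± 0.69 on the log2 scale, adjusted p = 0.381), Lilrb3 (1.28 ± 0.57, adjusted p = 0.494) and Pilrb2 (2.86 ± 1.02, adjusted p = 0.348). DESeq2 called 1 member, Pilrb2 (adjusted p = 0.0397), and 795 of 16400 genes. An unadjusted p under 0.05 in edgeR was found for 1593 of the 16400 genes.

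TLI changed no member past the threshold in the subsets where treatment could be tested. These contrasts came from the 23-library fit, in which 19597 genes were tested and batch was a term. In DC1b 0 of 6 members passed in edgeR, where 0.413% of genes were called. Of the members 3 had an unadjusted p under 0.05, as did 2425 of 19597 genes. DESeq2 called 1 member and 1263 of all genes. The members with the smaller p were Pilrb1 (3.34 ± 1.505 on the log2 scale, adjusted p = 0.385), Lilra6 (2.28 ± 0.90, adjusted p = 0.321) and Lilrb3 (1.53 ± 0.70, adjusted p = 0.391). The gene called by DESeq2 was Lilra6 (adjusted p = 0.0459). All 4 TLI libraries lay above both untreated libraries for Lilrb3 and Pilrb1, 2 of 6 members, where 5.12% of genes did so.

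In DC3 0 of 6 members passed in edgeR, against 0.0255% of genes called. DESeq2 called 1 member and 730 of 19597 genes. An unadjusted p under 0.05 in edgeR was found for 2044 genes and for 3 members. These were Pilrb2 (4.21 ± 1.56 on the log2 scale, adjusted p = 0.391), Pilrb1 (4.02 ± 1.62, adjusted p = 0.425) and Pilra (2.91 ± 1.25, adjusted p = 0.443), and the gene called by DESeq2 was Pilrb2 (adjusted p = 0.0221). All TLI libraries were above both untreated ones for Pilra and Pilrb2, against 3.27% of genes. The difference between the treatment contrasts of DC3 and DC1b was called for 0 members in edgeR, where 0.0204% of genes were called. DESeq2 called 0 members and 627 of all genes. Of the members 0 had an unadjusted p under 0.05 in edgeR, beside 1663 of 19597 genes. Both treatment contrasts rest on 2 untreated libraries per subset.

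In DC1a and DC2 the treatment contrast is described only. In DC1a, Pilrb1 alone had all TLI above all untreated libraries, 4 to 63 counts against 0 and 0, where 4.36% of genes did so. In DC2, Pilrb1 was again above in all TLI libraries (10.6% of genes), and Lilrb3 was below in all of them, at 73.3 to 124 CPM against 148 and 197 CPM (14.6% of genes). The mean of Lilrb3 was 3.71-fold higher in untreated DC2 than in untreated DC1b, and 1.10-fold higher in TLI DC2 than in TLI DC1b, where the values overlapped.

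Of 16 signalling partners of these receptors, 3 were higher in TLI DC2 than in DC1a and 0 lower, where 1.97% of all genes were called higher, with a median log2 fold change of 0.97 beside -0.02 for all genes. These were Fcer1g, the Fc receptor gamma chain (4.63 ± 0.33, adjusted p = 1.06e-05), Fgr, a Src family kinase (4.52 ± 0.73, adjusted p = 0.00411), and Tyrobp, the DAP12 adaptor (1.81 ± 0.32, adjusted p = 0.00823). The same 3 genes were called higher in DC1b than in DC1a, where 1.34% of all genes were called higher. Against DC3 only Fcer1g passed, higher in DC2 (1.63 ± 0.30, adjusted p = 0.0168) and lower in DC3 than in DC1b (-1.52 ± 0.28, adjusted p = 0.021). Of all genes, 0.78% were called higher in DC2 and 0.909% lower in DC3 in these comparisons. Tyrobp still had 509 to 1163 CPM in TLI DC1a, where its partner Pilrb1 had at most 2.22 CPM. Fcer1g was the one partner also called in DC3 against DC1a (3.00 ± 0.30, adjusted p = 0.000484), where 0.634% of genes were called in either direction. The phosphatase gene Ptpn6 had a mean of 203 ± 67.8 CPM (SD, n = 3) in TLI DC2 and 72.5 ± 63.7 CPM (SD, n = 4) in TLI DC1a and was not called.

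Of 24 other paired or DAP12-linked receptors 22 were tested, and 9 were higher and 0 lower in TLI DC2 than in DC1a, where 1.97% of all genes were called higher, with a median log2 fold change of 3.66 beside -0.02 for all genes. The smallest adjusted p belonged to Clec4a2 (6.68 ± 0.54, adjusted p = 1.86e-05), an inhibitory C-type lectin, and to Sirpb1a (9.73 ± 0.94, adjusted p = 9.18e-05), Sirpb1b (9.96 ± 1.00, adjusted p = 0.000139) and Sirpb1c (9.50 ± 1.05, adjusted p = 0.000283), signal regulatory proteins that use DAP12. Cd300lb (9.58 ± 1.61) and Cd300c2 (1.82 ± 0.31), of the CD300 family, followed. Of those not called, Cd300c had a log2 fold change of -5.30 ± 2.17 (adjusted p = 0.224) and Treml4 of -1.71 ± 1.36 (adjusted p = 0.578). The Sirpb1 genes belong to the family of Sirpa, whose protein was a sorting marker, and reads shared among them were not examined. In DC1b against DC1a 9 of 22 were higher and 0 lower (1.34% of all genes higher), in DC2 against DC3 8 were higher and 0 lower (0.78%), and in DC2 against DC1b 0 were called.

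Ligands and neighbours gave fewer calls. Of 13 known or proposed ligands 11 were in the table and 10 were tested, and 0 were called in edgeR in any of the 9 comparisons, with 0 to 5 at an unadjusted p under 0.05. Of 20 relatives in or near the leukocyte receptor complex only 8 were matched in the table and 5 were tested in TLI cells. In DC2 against DC1a 0 were called in edgeR and 4 had an unadjusted p under 0.05, as did 2852 of 16400 genes. Pira2, an activating relative of Lilra6, had a mean of 65.7 CPM in TLI DC2, 38.6 CPM in TLI DC1b, 22.5 CPM in TLI DC3 and 1.43 CPM in TLI DC1a, and its fold change of DC2 over DC1a was 5.21 ± 1.90 (adjusted p = 0.175).

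Genes most like each member were found by Pearson correlation of log2 CPM over 23 libraries among 14064 genes, as a description. Points share subset and library, so any gene switched between DC1b with DC2 and the rest ranks high. Lilra5 was closest to Fabp4, a fatty acid binding protein (r = 0.986), Ms4a4a (r = 0.972) and the apolipoprotein gene Apoc2 (r = 0.970). Fabp4 had 62.5 to 66.2 CPM in untreated DC1b, 36.0 to 41.1 CPM in untreated DC2 and at most 0.489 CPM in any DC1a or DC3 library. Pilra was closest to Pilrb1 (r = 0.947), the lectin receptor Clec4a3 (r = 0.944) and Lilra5 (r = 0.927). Pilrb1 was closest to the Fc receptor gene Fcgr3 (r = 0.952), Pilra and the antisense transcript Tnfsf13os (r = 0.938). For Pilrb2 the closest were Lilra5 (r = 0.882), Tnfsf13os (r = 0.879) and Clec4a3 (r = 0.876).

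Lilra6 was closest to Gm15931 (r = 0.936) and Gm15448 (r = 0.924), which share 64 and 129 read-length windows with it, and then to Arhgap9 (r = 0.874). Lilrb3 was closest to Arhgap9 (r = 0.886), the protease gene Ctsc (r = 0.856) and Emilin2 (r = 0.852). The chromosome 7 genes Lilra6 and Lilrb3, whose upstream stretches shown above are nearly identical, were thus not among each other's 3 closest genes. Neither were Pilrb1 and Pilrb2, nor Pilra and Pilrb2, whereas Pilra and Pilrb1 were. A place outside the 3 closest does not say how far apart a pair was.

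The sum of nonclassical monocyte markers was mostly higher where Lilra5, Pilra, Pilrb1 and Pilrb2 were high, though not every marker was. The 10 markers summed to 957 to 1173 CPM in untreated DC1b and 2093 to 2226 CPM in untreated DC2, against 377 to 419 CPM in DC1a and 442 to 474 CPM in DC3. In TLI mice they summed to 1431 to 3755 CPM in DC1b and 1773 to 2118 CPM in DC2, against 216 to 1258 CPM in DC1a and 126 to 888 CPM in DC3. All 10 markers were above 3 counts in DC1b and DC2, and 9 of 10 in untreated DC1a, where Cx3cr1 was not, and in untreated DC3, where Fcgr4 was not. In TLI DC2 against DC1a 6 of 10 were called higher and 0 lower, where 1.97% of all genes were called higher. The median log2 fold change of the 10 markers was 3.44, beside -0.02 for all genes. Among those called were Adgre4 (8.45 ± 1.20), Ace (8.35 ± 1.03) and Ear2 (3.50 ± 0.75). Treml4, on the same list, had a negative log2 fold change there and was not called. It had 53.1 to 255 CPM in TLI DC1a. In untreated DC1a it had 42.6 to 81.1 CPM, beside 50.8 to 89.3 CPM in untreated DC2.

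The sum did not track the receptors in every library. TLI DC1a pool 2 had 1258 CPM of these markers, more than either untreated DC1b library, with 0 counts of Lilra5 and of Pilrb2. The sum does not show which markers made it up, and Treml4 alone reached 255 CPM among the TLI DC1a libraries. What this library says about monocyte content was not tested. Adgre4 itself was at 0.352 to 1.29 CPM in TLI DC1a and 271 to 522 CPM in TLI DC2. Macrophage markers, 11 genes, summed to 478 to 2878 CPM in TLI DC1b and 536 to 3802 CPM in TLI DC2, and to at most 617 CPM in every other group. In untreated DC2 the macrophage sum was 383 to 617 CPM, and neutrophil markers summed to at most 2.34 CPM. Classical monocyte markers, 6 genes, summed to 2220 to 3147 CPM in untreated DC1b, 535.9 to 665 CPM in untreated DC3, 86.9 to 101 CPM in untreated DC1a and 71.9 to 73.1 CPM in untreated DC2. In TLI mice they summed to 499.8 to 1170 CPM in DC1b, 360.0 to 882 CPM in DC2, 453 to 832 CPM in DC3 and 47.0 to 212 CPM in DC1a. Of them, 4 were called higher in TLI DC2 than in DC1a (1.97% of all genes), with a median log2 fold change of 3.69. In TLI DC1b against DC1a 3 were called higher (1.34% of all genes), with a median of 6.48. The medians over all genes were -0.02 and 0.01. The part of other cells in the receptor levels was not tested.

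**Figure D4:**
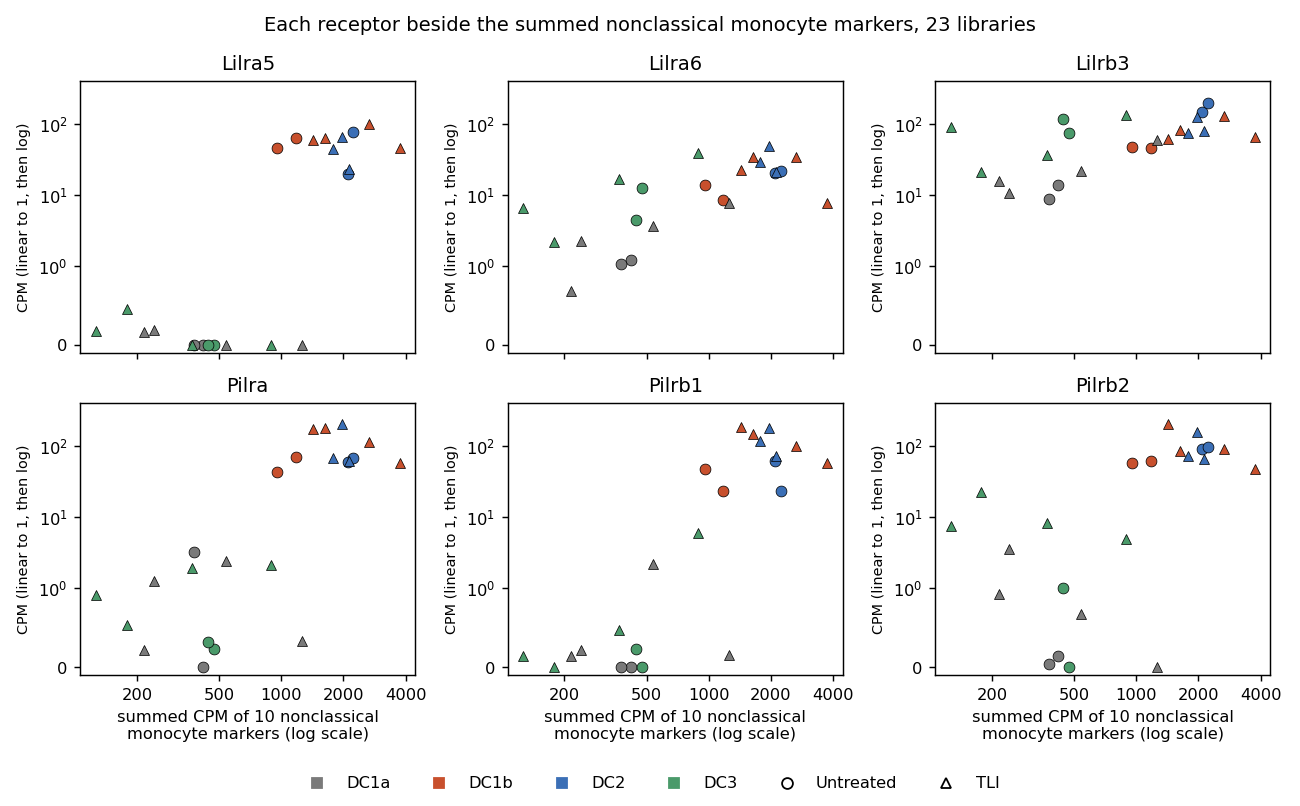
CPM of each receptor (vertical axis, linear to 1 and logarithmic above) beside the summed CPM of 10 nonclassical monocyte markers (horizontal axis, logarithmic) in 23 libraries, coloured by subset, circles for untreated and triangles for TLI. The DC1b and DC2 libraries lie at the upper right for Lilra5, Pilra, Pilrb1 and Pilrb2, and TLI DC1a pool 2 lies at 1258 CPM of markers with no Lilra5 count.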

How the data were processed

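Bulk RNA sequencing was done on 1000 sorted cells per library with 76 base paired reads. Per the labels and the study's methods, the authors trimmed reads with Trimmomatic, aligned them to GRCm38 with HISAT2, assembled estimated counts per gene with StringTie, and deposited these expected counts as whole numbers, not normalized, for 47729 genes in 23 libraries. StringTie derives counts from coverage, so they approximate read counts. DESeq2 is also listed among their tools. Groups, pools and batches were taken from the labels.

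From the counts, CPM was computed on each library's total (0 columns were left unused). Levels between genes were compared per kilobase of annotated exon. Differences were tested with edgeR 4.0.16 (R 4.3.3) by glmQLFit and glmQLFTest, with TMM factors, filterByExpr and batch as a term, on 15 TLI libraries (16400 genes) or all 23 (19597 genes). Fits were tested on simulated data first. Alternatives were the pool as a block, DESeq2 1.42.0, RLE factors, other filters, no batch term, all 23 libraries, batch 1 alone and leaving out each library. Folds over groups with no count used a floor of 3 counts per library. The floor covers counting error only.

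Members and lists were chosen with earlier results of these data known. The named genes are the 6 members, up to 6 genes per list with the smallest adjusted p among those called in TLI DC2 versus DC1a, the 3 closest genes per member, and markers or overlapping genes that bear on a value. Libraries of 1 pool come from the same mice by their labels. Their residuals correlated between -0.162 and 0.0673 over 33 pairs (median -0.0423), with 0 pairs above 0.1. In the untreated groups pools 1 and 2 gave the same correlations, because residuals of 2 libraries mirror each other. The pairs are thus not independent, and residuals from so few libraries are a weak check for shared mice. Library totals ran from 19256447 to 36997890. The study names biological replicates for DC1a, DC1b and DC2 and mentions duplicate experiments for purifying these populations. It does not say so of the TLI pools or of DC3. The p-values measure only the spread between these samples, which may be technical. No protein sequences were used here. Biopython 1.88 aligned promoters.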

Additional observations from a re-analysis of the deposited data

Results flagged for a closer look

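In the groups of 4 libraries, 1 library stood apart from the rest by Dixon's criterion for the gap to its neighbour in 2 of 18 cases, and chance gives about 1 in 20. Pilrb1 had 2.22 CPM in TLI DC1a pool 1, and the gap to the nearest other library was 0.961 of the group's range. Pilrb1 also had 5.87 CPM in TLI DC3 pool 2, with a gap of 0.919 of the range. Without TLI DC3 pool 2 the log2 fold change of Pilrb1 in DC3 against DC1a was -1.56 (adjusted p = 0.594, edgeR), in place of 0.59.

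Lilrb3 had opposite directions in 2 subsets. All TLI DC1b libraries were above the untreated ones, and all TLI DC2 libraries, with a mean of 92.3 CPM, were below the untreated DC2 libraries, with a mean of 172 CPM. The difference between these directions was not tested.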

How the results depend on the processing

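With the pool as a replicate block, 5 members were called in TLI DC2 against DC1a, as without it, and the block changed no call of a member other than that of Pilrb1 in DC2 against DC3. DESeq2 called 1 member in place of 0 in DC3 against DC1a, in TLI against untreated DC1b and in TLI against untreated DC3. Leaving out 1 library gave 3 to 5 called members in DC2 against DC1a, with 3 without TLI DC1a pool 1 or pool 4. For DC2 against DC1b, and for the difference between the treatment contrasts, 0 members were called in every alternative run. Levels on TMM-scaled totals moved by over 1 SD in 4 of 48 values.

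Some log2 fold changes that passed no threshold changed sign, and the cause was not tested. In DC2 against DC1b, Lilrb3 was 0.0257 with the block and -0.31 to 0.35 when 1 library was left out. Pilrb1 was -0.25 without the batch term and -0.36 to 0.71 by left-out library, and Pilrb2 was -1.56 to 0.30. In DC3 against DC1a the left-out ranges were -0.57 to 0.93 for Lilra5, -0.32 to 0.65 for Pilra and -1.56 to 1.78 for Pilrb1. In TLI against untreated DC1b, Lilra5 was -0.0380 with DESeq2 and -0.21 to 0.26 by left-out library, and in DC3 Lilrb3 was -0.54 to 0.34. For the difference between treatment contrasts, Lilra6 was 0.19 in batch 1 alone and -1.41 to 0.0322 by left-out library, and Pilrb1 was -1.22 to 5.33.

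Over all genes, edgeR called 487, 27, 198, 240, 104 and 168 genes in DC2 against DC1a, DC2 against DC1b, DC2 against DC3, DC1b against DC1a, DC3 against DC1a and DC3 against DC1b. In that order DESeq2 called 2018, 750, 1281, 1165, 795 and 1041, the fit without batch 261, 21, 119, 147, 41 and 75, and the fit without a filter 600, 81, 340, 361, 182 and 309. For TLI against untreated DC1b, DC3 and their difference, edgeR called 81, 5 and 4 genes, DESeq2 1263, 730 and 627, the fit without batch 19, 2 and 1, and the fit without a filter 167, 60 and 45. The 2 untreated libraries per subset limit the treatment contrasts.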
